A study of Homo sapiens with 6 samples.

Results

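The BTG and TOB antiproliferative genes were described in REH, an established human cell line that derives from a B-precursor acute lymphoblastic leukemia. The members were the 5 rows of the deposited table named BTG1, BTG2, BTG3, TOB1 and TOB2, out of 26485 entries, and all 5 were among the 11454 genes with enough counts to be tested. Cells received the solvent DMSO alone (3 libraries) or 25 µM ML141, a compound that inhibits the small GTPase CDC42 (3 libraries), and RNA was taken after 24 h in both groups. The labels speak of 3 independent experiments with this 1 cell line. The members were chosen by family name with their counts in the ML141 and DMSO libraries already known, so those values are given as a description, with standard errors and without p-values.

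BTG and TOB proteins share an N-terminal domain that binds the CAF1 deadenylase subunits (CNOT7 and CNOT8) of the CCR4-NOT complex, which shortens poly(A) tails of mRNA. BTG1 and BTG2 are short proteins built of little more than this domain, and in resting lymphocytes they help keep mRNA levels and proliferation low. TOB1 and TOB2 carry a longer C-terminal part that also binds the cytoplasmic poly(A)-binding protein, and BTG3 belongs to neither of these pairs. BTG1 is recurrently deleted in childhood B-precursor leukemia.

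The family did not move as 1 block. With ML141, BTG1 and BTG2 were 2.53-fold and 3.52-fold higher, BTG3 was 2.86-fold lower, and TOB1 and TOB2 had log2 fold changes of -0.04 and 0.11. Of the 5 genes, 2 were higher and 1 lower at an adjusted p under 0.05 (edgeR's quasi-likelihood test, Benjamini-Hochberg adjustment), where 26.7% of all tested genes were higher and 27.7% lower, 54.4% in all. A rise of more than 2-fold past that threshold was seen in 6.76% of tested genes and a fall of that size in 6.24%. Libraries of the groups did not overlap for 4 of the 5 genes, against 61.2% of all tested genes. A lower or higher value in these bulk samples cannot tell a change in the number of cells of a kind from a change in RNA per cell.

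The 250 bases before the RefSeq transcription start are shown for the 3 genes that differed by more than 2-fold, because BTG1 and BTG2 were higher while BTG3 was lower. The sequences are from RefSeq on GRCh38.p14, the same chromosomes as hg38, and are written 5′ to 3′ on the strand of the gene. Capitals mark matches, on either strand, to the letters of a forkhead FOXO motif (GTAAACA), the CCAAT box (CCAAT), the half-site of the cAMP and ATF response element (TGACG), an E2F motif (TTTCCCGC) and the TATA box (TATAAA). The BTG1 window is chr12:92145847-92146096 on the minus strand, the BTG2 window chr1:203305269-203305518 on the plus strand and the BTG3 window chr21:17612902-17613151 on the minus strand.
BTG1: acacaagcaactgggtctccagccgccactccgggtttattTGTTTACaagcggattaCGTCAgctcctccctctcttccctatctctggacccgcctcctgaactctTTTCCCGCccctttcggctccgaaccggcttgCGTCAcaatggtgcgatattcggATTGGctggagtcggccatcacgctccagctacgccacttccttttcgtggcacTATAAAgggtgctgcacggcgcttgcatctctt
BTG2: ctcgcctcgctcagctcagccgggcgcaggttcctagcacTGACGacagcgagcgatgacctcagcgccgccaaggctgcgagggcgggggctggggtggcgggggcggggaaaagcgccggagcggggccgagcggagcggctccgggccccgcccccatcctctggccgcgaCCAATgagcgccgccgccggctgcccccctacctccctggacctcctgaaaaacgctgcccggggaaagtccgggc
BTG3: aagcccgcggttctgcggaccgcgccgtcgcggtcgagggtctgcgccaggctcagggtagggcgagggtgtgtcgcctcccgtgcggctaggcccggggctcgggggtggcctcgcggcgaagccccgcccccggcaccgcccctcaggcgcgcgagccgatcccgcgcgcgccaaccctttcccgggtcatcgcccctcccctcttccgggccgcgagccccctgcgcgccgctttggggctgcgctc

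The 3 windows differed in base content. GC made up 56.4% of the BTG1 window, 74.8% of the BTG2 window and 78.4% of the BTG3 window, where the median of 35116 RefSeq windows was 58%. BTG1 and BTG2 both held a CCAAT box, at bases 87 to 83 and 76 to 72 before the start, and the letters CCAAT occurred in 32% of all windows. Both also held TGACG, BTG1 at 2 places and BTG2 at 1, against 21.2% of all windows. The BTG1 window held a FOXO match at bases 209 to 203 before the start, a match present in 2.98% of all windows, an E2F match (1.39%) and a TATA box at bases 33 to 28 (10.7%). The BTG3 window held none of these 5 motifs. The 3 windows were picked by fold change, and the motifs were chosen with the sequences in view. The shares over all windows therefore do not test whether a match, or the contrast with BTG3, is unusual. For TOB1 and TOB2, with log2 fold changes of -0.04 and 0.11, 1 of the 2 TOB1 windows held CCAAT at bases 186 to 182 and TGACG at bases 87 to 83, while the other TOB1 window and the TOB2 window held none of the 5. The GC box GGGCGG, left in lower case, was in 5 of the 6 windows of the 5 genes, against 42.6% of all windows. These were the BTG1, BTG2, BTG3 and TOB2 windows and the TOB1 window with CCAAT. In BTG1 the GC box match overlaps the E2F match. The full response element TGACGTCA (1.65% of windows) matched in none of the 6 windows RefSeq gives for the 5 genes. GENCODE places the start 51, 28 and 46 bases upstream of the RefSeq start for BTG1, BTG2 and BTG3, and 222 bases upstream for TOB2. For TOB1 it lies 1624 bases upstream of the RefSeq start of the window with CCAAT and TGACG. The start of the other TOB1 window is the GENCODE start. Which start REH cells use was not analysed here.

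BTG1, which recruits the deadenylase and also binds the arginine methyltransferase PRMT1, lies on chromosome 12 from 92140278 to 92145897 (hg38, GENCODE release 29, minus strand) and has 2 exons. Its level was 58.0, 56.1 and 53.7 CPM (counts scaled to library size, with TMM factors) in DMSO replicates 1, 2 and 3. In ML141 replicates 1, 2 and 3 it was 164, 121 and 139 CPM. Every ML141 library was above every DMSO library, and the spread was wider with ML141, where replicate 1 was highest. The DMSO mean was 55.9 ± 2.13 and the ML141 mean 142 ± 21.6 CPM (SD, n = 3), which gave a fitted log2 fold change of 1.34 (SE 0.112). Between libraries of the same replicate number the difference in log2 level was 1.5, 1.11 and 1.37. Of the exon bases of BTG1, 9.68% are also annotated to another gene, 6.94% to AC025164.1 on the opposite strand and 2.74% to LINC01619 on the same strand. The kit does not mark strand, so reads from those bases cannot be assigned by strand.

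BTG2, the closest relative of BTG1 in the family, lies on chromosome 1 from 203305491 to 203309602 on the plus strand, with 2 exons and no exon base shared with another gene. It was the scarcest member in DMSO, with 44, 66 and 72 reads in DMSO replicates 1, 2 and 3 and 270, 309 and 241 in ML141 replicates 1, 2 and 3. Scaled to library size these were 5.70, 6.84 and 6.94 CPM in DMSO. In ML141 they were 25.0, 23.3 and 20.7 CPM. The groups lay far apart, and each ML141 library was more than 2-fold above each DMSO library. Mean levels were 6.5 ± 0.687 CPM in DMSO and 23.0 ± 2.16 CPM with ML141 (SD, n = 3), and the fitted log2 fold change was 1.81 (SE 0.149). By replicate number the log2 level rose by 2.10, 1.74 and 1.55.

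BTG3, also called ANA, lies on chromosome 21 from 17593653 to 17612947 on the minus strand, with 6 merged exons and no shared exon base. It was measured at 27.1, 27.4 and 30.4 CPM in DMSO replicates 1, 2 and 3. The ML141 replicates gave 9.82, 9.88 and 9.97 CPM. The ML141 libraries were nearly equal, and all lay far below every DMSO library. They rest on 106, 131 and 116 reads, for which counting error alone is larger than the spread seen. The small SD with ML141 is therefore no measure of precision. Mean levels were 28.3 ± 1.82 CPM in DMSO and 9.89 ± 0.0773 CPM with ML141 (SD, n = 3), with a fitted log2 fold change of -1.52 (SE 0.123). By replicate number the log2 level fell by 1.45, 1.45 and 1.59.

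TOB1, which in addition binds SMAD proteins and is marked for degradation with the help of SKP2, lies on chromosome 17 from 50862223 to 50867978 on the minus strand. Its DMSO libraries gave 17.6, 22.9 and 23.2 CPM. Its ML141 libraries gave 20.4, 20.3 and 21.8 CPM, inside the DMSO range. DMSO replicate 1, the library with the fewest counts in all, was the lowest of the 6. The log2 fold change was -0.04 (SE 0.133), and it was 0.07 with upper-quartile factors and 0.14 with library totals in place of TMM. Of the TOB1 exon bases 11.2% overlap the antisense gene TOB1-AS1, which itself had 74 counts in the 6 libraries together.

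TOB2, the paralog of TOB1, lies on chromosome 22 from 41433492 to 41447023 on the minus strand and shares no exon base with another gene. By name, GENCODE also lists the copies TOB2P1, which has its own entry in the deposited table, and BTG1P1 and BTG3P1, which do not. Whether such copies affect the counts of TOB2, BTG1 or BTG3 was not tested. TOB2 was measured at 60.4, 57.8 and 60.4 CPM in DMSO replicates 1, 2 and 3. The ML141 replicates gave 60.9, 70.3 and 61.9 CPM. The groups just failed to overlap, and ML141 replicate 2 stood above the other 5 libraries, which lay close together. The TOB2 log2 fold change was 0.11 (SE 0.094), and it was 0.0447 without ML141 replicate 2 and 0.0272 without replicate 2 of both groups. With library totals, a scaling that moved the median of all genes from 0.02 to 0.19, it was 0.29. The authors' deposited table gave log2 fold changes of 1.33 for BTG1, 1.81 for BTG2, -1.52 for BTG3, -0.04 for TOB1 and 0.11 for TOB2.

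**Figure D1:**
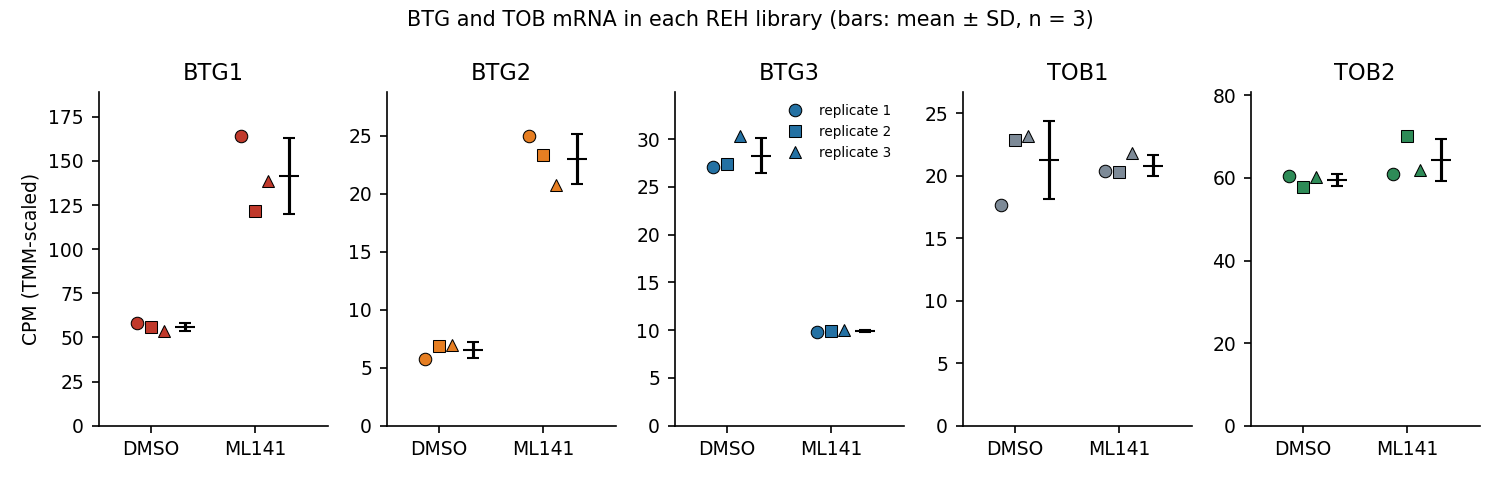
Level of each gene in CPM (linear axis from 0, 1 scale per panel) in the 3 DMSO and 3 ML141 libraries, with symbols for the replicate number and the mean ± SD at the side. BTG1 and BTG2 sit higher in every ML141 library, BTG3 sits near 9.9 CPM in all ML141 libraries, and the TOB1 and TOB2 values lie side by side.

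**Figure D2:**
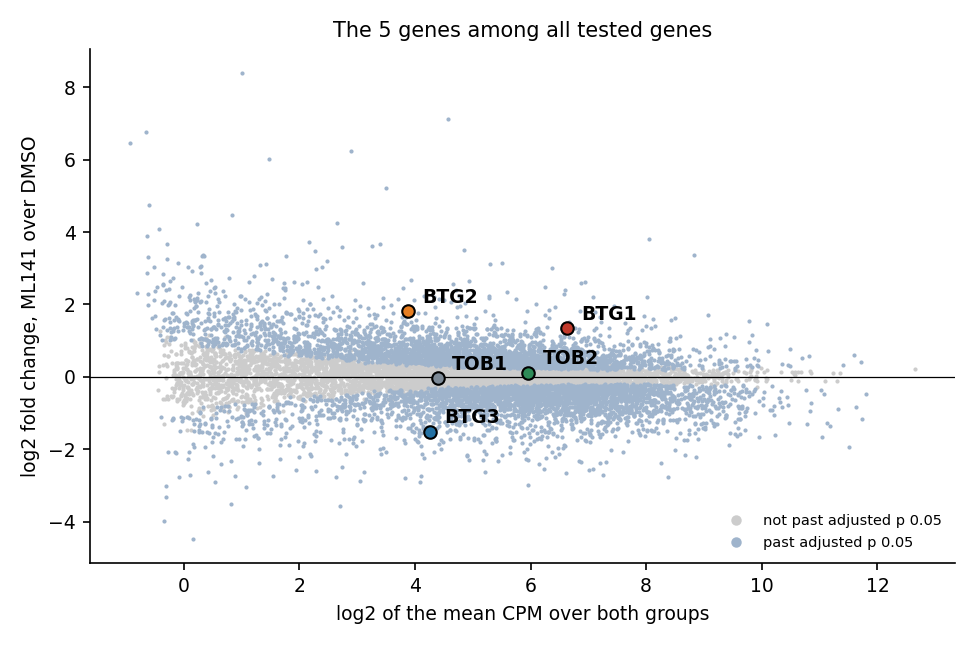
Log2 fold change of ML141 over DMSO against the log2 of the mean CPM for the 11454 tested genes (small points, darker where the adjusted p was under 0.05), with the 5 genes as large points. BTG2 and BTG1 lie in the upper tail (percentiles 98.4 and 96.4) and BTG3 in the lower tail (1.99), with other genes beyond them. TOB1 and TOB2 lie near the zero line.

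Placed among all tested genes, the log2 fold change of BTG2 stood at percentile 98.4 and that of BTG1 at 96.4, counted from the lowest value. That of BTG3 stood at percentile 1.99, and TOB1 and TOB2 stood at 46.3 and 57.1, near the middle. In mean CPM over the 6 libraries BTG1 was at percentile 76.7, TOB2 at 64.2, TOB1 at 36.8, BTG3 at 34.5 and BTG2 at 29.6, a mean that for BTG2 pools 6.5 CPM in DMSO with 23.0 CPM with ML141. The other human member, the germ-cell gene BTG4, is listed at 0 counts in all 6 libraries, which by counting error alone allows up to 0.226 to 0.389 CPM per library (3 counts). That limit holds only if reads of the gene could be counted: the broadly expressed genes PARN, a deadenylase, and LSM2, of the decapping machinery, are also listed at 0 and at 2 counts in the 6 libraries together, and the cause was not tested.

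To compare the genes with each other, CPM was divided by the length of the merged GENCODE exons, 4.68 kb for BTG1, 2.71 kb for BTG2, 1.59 kb for BTG3, 2.51 kb for TOB1 and 4.56 kb for TOB2. In DMSO the order was BTG3 (17.8 ± 1.14 CPM per kb, SD, n = 3), TOB2 (13.1 ± 0.323), BTG1 (11.9 ± 0.455), TOB1 (8.46 ± 1.25) and BTG2 (2.40 ± 0.253). No 2 neighbours in that order overlapped, although TOB2 and BTG1 came close, with 12.7 CPM per kb in the lowest TOB2 library and 12.4 in the highest BTG1 library. With ML141 the order became BTG1 (30.3 ± 4.61 CPM per kb), TOB2 (14.1 ± 1.13), BTG2 (8.48 ± 0.797), TOB1 (8.29 ± 0.346) and BTG3 (6.23 ± 0.0487). BTG2 and TOB1 overlapped there, and the other neighbours did not. BTG3 thus went from the first place to the last and BTG1 from the third to the first.

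The sum over the 5 genes was 51.8 to 55.6 CPM per kb in DMSO and 64.3 to 72.0 with ML141, so the total differed less than the makeup. BTG1 took 20.6% to 23.9% of that sum in DMSO libraries and 40.4% to 48.8% in ML141 libraries. BTG2 took 4.06% to 4.71% and then 11.6% to 13.4%. BTG3 went the other way, from 32.2% to 34.4% down to 8.59% to 9.68%. The share of TOB2 was 23.7% to 25.6% in DMSO and 18.5% to 24.0% with ML141, and that of TOB1 was 13.5% to 17.0% and 11.3% to 13.2%. These levels rest on the GENCODE exon lengths, and the annotation the authors counted with is not given in the sources used here.

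**Figure D3:**
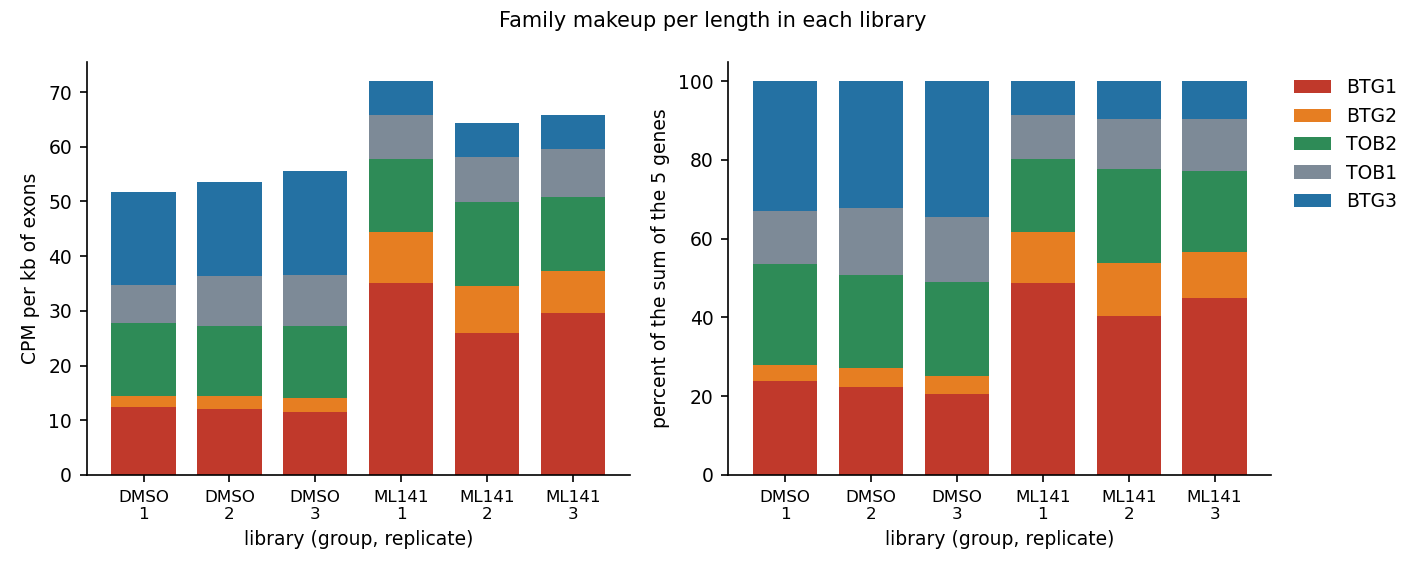
Stacked bars per library of CPM per kb of exons (left) and of the percent of the 5-gene sum (right), both from 0. BTG1 and BTG2 fill more of each ML141 bar, and BTG3 falls from 32.2% or more in DMSO to 9.68% or less.

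For each member the tested genes with the most similar course over the 6 libraries were found, by the Euclidean distance between log2 CPM profiles centred on their own mean, among 9685 genes whose mean reached 5 CPM. With 6 libraries in 2 groups this likeness mostly reflects the size of the ML141 difference. Nearest to BTG1 were HBP1 (distance 0.09), which encodes an HMG-box repressor of cell cycle genes, RNF19B (0.10) and YIPF2 (0.11). The 3 genes nearest to BTG2 included RBMS3 (0.19) and NBR2 (0.24). BTG3 ran closest to MCM8 (0.15), a helicase of recombination repair, MASTL (0.16), a mitotic kinase, and MPP2 (0.17). TOB1 was nearest to MED19 (0.12), XPNPEP3 (0.12) and RPAIN (0.13), and TOB2 to STAT6 (0.06), TMED4 (0.07) and IKBKB (0.07). HBP1, YIPF2 and RPAIN share 27.6%, 41% and 43.2% of their exon bases with other genes, so their values are less certain. NBR2 and MASTL share 16.4% and 12.2%, and the other nearest genes named here share 6.45% or less. NBR2 was among the 3 nearest to BTG2 with a prior count of 2 but not of 0.5.

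In the machinery that BTG and TOB proteins bind, log2 fold changes ran from -0.67 to 0.15. As a scale for the counts of each list with TMM and all libraries, 26.7% of all tested genes were higher and 27.7% lower. These shares do not hold for the refits. With library totals 66.1% of all changed genes were higher, against 49.1% with TMM. With libraries left out, 4161 to 6567 genes were changed in all, against 6230 with all libraries. Whether a list moved more than all genes did in a refit was not tested. The gene lists were chosen with earlier results of these data known, so their counts and p-values are a description. Of 12 tested genes of the CCR4-NOT complex 0 were higher and 5 lower, with a median log2 fold change of -0.07 against 0.02 over all tested genes, and with library totals 1 was higher and 2 lower. Without replicate 2 of both groups 3 were lower and without replicate 3 of both groups 2, and 1 was higher without ML141 replicate 2. The direct docking subunits CNOT7 and CNOT8 had log2 fold changes of -0.0002 (SE 0.102) and 0.15 (SE 0.093), neither past the threshold, although CNOT8 passed it with library totals at 0.33 (edgeR adjusted p = 0.00662), with upper-quartile factors (0.0206) and without ML141 replicate 2 (0.0487). The other nucleases of the complex, CNOT6 and CNOT6L, stood at -0.27 (SE 0.074, edgeR adjusted p = 0.00906) and 0.02 (SE 0.096), and the call for CNOT6 was lost with library totals (adjusted p = 0.269), with upper-quartile factors (0.0725) and without replicate 3 of both groups (0.0823). The scaffold CNOT1 fell from 899 ± 43.0 to 633 ± 53 CPM, and RQCD1, the older symbol of CNOT9, fell from 243 ± 4.0 to 153 ± 1.81 CPM (edgeR adjusted p = 3.76e-04 and 1.23e-05, n = 3 per group).

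PABPC1, the main cytoplasmic poly(A)-binding protein that TOB1 and TOB2 contact, was at 2625 ± 98.4 CPM in DMSO and 2411 ± 228 with ML141 and did not pass the threshold, while its relative PABPC4 fell from 339.5 ± 8.06 to 216 ± 21.5 CPM (edgeR adjusted p = 5.97e-05). In that list of poly(A)-binding proteins and other deadenylases 3 of 14 were higher and 5 lower, with a median log2 fold change of -0.18. With TMM and all libraries, 26.7% of all tested genes were higher and 27.7% lower. That is also the scale for the partners below, but not for their counts in refits. PRMT1, the partner of BTG1 and BTG2, fell from 112 ± 2.29 to 79.97 ± 5.93 CPM (edgeR adjusted p = 5.22e-04). SKP2, the ubiquitin ligase subunit that acts on TOB1, fell by 2.02 on the log2 scale (SE 0.101), from 268 ± 7.32 to 66.0 ± 9.11 CPM (edgeR adjusted p = 7.65e-08), while TOB1 mRNA itself stayed within its DMSO range. Among the 11 tested partners and modifiers 2 were higher, SMAD7 with a log2 fold change of 1.59 (SE 0.272) being the larger, and 5 were lower (3 with library totals or without replicate 2 of both groups). The other higher one, SMAD4, lost its call when ML141 replicate 1, DMSO replicate 2 or DMSO replicate 3 was left out, and when replicate 2 or 3 of both groups was.

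Downstream of deadenylation, 2 of 17 tested decapping and decay genes were higher and 8 lower (5 and 5 with library totals, 5 lower without replicate 3 of both groups), with LSM3 at -1.15 (SE 0.093) and the exonuclease gene XRN1 at 0.65 (SE 0.098). The shares over all tested genes, for this list and the next, were 26.7% higher and 27.7% lower with TMM and all libraries. They are no scale for the refit counts. With library totals 66.1% of all changed genes were higher, against 49.1% with TMM. Without replicate 3 of both groups 4161 genes were changed in all, against 6230 with all libraries. Of 20 tested RNA-binding recruiters of the complex 7 were higher and 1 lower, including ZFP36, which brings CCR4-NOT to AU-rich mRNA, at 0.81 (SE 0.174), and 4 were higher without DMSO replicate 2, without DMSO replicate 3 or without replicate 3 of both groups. The count of lower recruiters was 2 without DMSO replicate 3, ML141 replicate 1 or ML141 replicate 2. The lower one with all libraries was AGO2 at -0.30 (SE 0.083), a call lost with library totals (adjusted p = 0.201), with upper-quartile factors (0.0619) and without replicate 3 of both groups (0.129).

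The list of genes known as regulators of BTG1 and BTG2 or as companions in lymphocyte quiescence had 12 of 17 tested genes higher and 1 lower, with a median log2 fold change of 0.58. Of all tested genes 26.7% were higher and 27.7% lower. Because the list was chosen with earlier results of these data known, its count is a description and not a test. The list held FOXO1, of a factor family known to act on BTG1, at 0.58 (SE 0.075), and the glucocorticoid receptor gene NR3C1 at 0.93 (SE 0.081). TSC22D3 (GILZ) and KLF2, both high in resting lymphocytes, rose with log2 fold changes of 2.60 (SE 0.109) and 2.57 (SE 0.297), KLF2 from 1.16 ± 0.502 CPM. The gene that fell was RBL1, a pocket protein gene that E2F factors act on, at -0.996 (SE 0.105).

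The D-type cyclins drive entry into the cell cycle, and CCND1 is a known target of repression by BTG2 and TOB1. CCND3, the most abundant D-type cyclin here, was at 298 ± 27.2 CPM in DMSO and 252 ± 42.1 with ML141, and CCND2 was at 3.98 ± 0.931 and 5.78 ± 1.71 CPM. Neither passed the threshold (edgeR adjusted p = 0.0946 and 0.0882), though CCND3 passed without ML141 replicate 2 (adjusted p = 0.00707), without replicate 2 of both groups (0.0199) and with the replicate number as a block (0.024), and CCND2 without ML141 replicate 3 (0.0322), without replicate 1 of both groups (0.0257), with library totals (0.0342) and with no low-count filter (0.0441). CCND1 had 33 counts in all libraries together and was not tested. Their kinase partner CDK4 fell from 221 ± 5.02 to 109 ± 8.06 CPM, although 51.9% of its exon bases overlap TSPAN31 on the opposite strand, and CDK6 stood at -0.10 (SE 0.090).

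**Figure D4:**
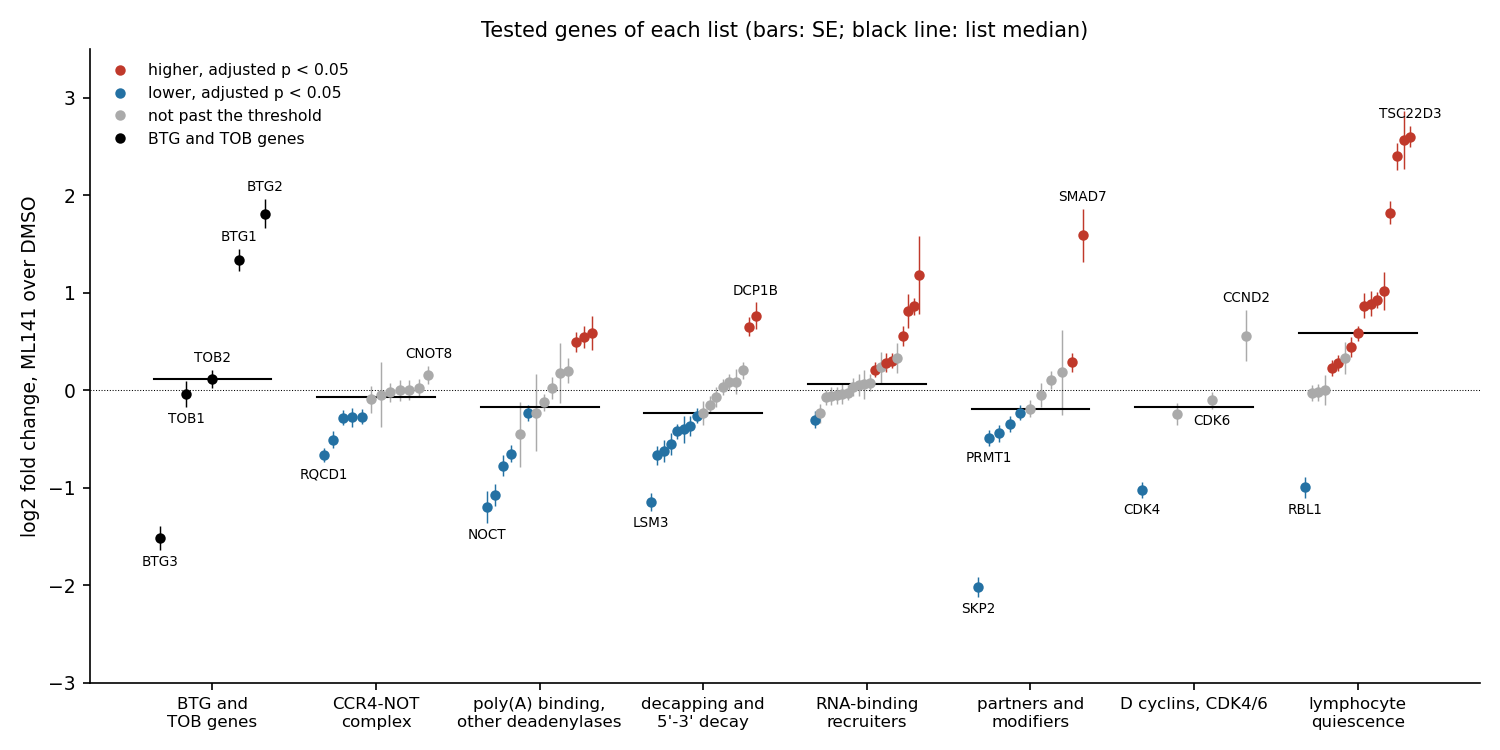
Log2 fold change of ML141 over DMSO with its SE for every tested gene of the 8 groups, with the median of each group as a black line. BTG1, BTG2 and BTG3 in the first column lie outside the range of the CCR4-NOT genes (-0.67 to 0.15), and most genes of the quiescence column lie above 0. The 8 groups were chosen with earlier results of these data known.

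The libraries held 8284299 to 12308039 counts, so that 1 count stood for 0.0754 to 0.13 CPM. Of 13 precursor B cell markers 12 were tested, with a summed level of 7090 to 7760 CPM in DMSO and 9380 to 9660 with ML141, and VPREB1 had 1 count. The 10 T and NK cell markers summed to 1.17 to 1.54 CPM in DMSO and 1.39 to 2.75 with ML141, with CD2, CD3D, CD3G, GNLY and KLRD1 listed at 0. The 6 erythroid markers summed to at most 0.104 CPM, with HBB, HBA1, HBA2 and AHSP listed at 0, and the 7 fibroblast and endothelial markers to at most 2.28 CPM, with CDH5 and COL3A1 listed at 0. The 10 myeloid markers summed to 49.1 to 50.3 CPM in DMSO and 32.8 to 36.4 with ML141, most of it MPO, with ELANE, FCGR3A and S100A8 listed at 0. A listed 0 is limited as for BTG4, since PARN is listed at 0 too. The part of the moving marker sums in the values of the BTG and TOB genes was not tested.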

How the data were processed

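RNA from 6 libraries was made with a TruSeq RNA v2 kit, per the labels' protocols. The deposited table gives whole-number counts per gene symbol. The submitters' processing notes list DESeq2, featureCounts, Picard, Bowtie2, Trimmomatic and bcl2fastq 2.19, with build hg38. What each did, and with which annotation, is not given in the sources used here. The authors also deposited scores (rounded counts over a library's size factor of 0.735 to 1.29), fold ratios, log2 fold changes and p-values of their own comparison. Of these only the log2 fold changes were used, where named.

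Genes passing edgeR's filterByExpr (minimum count 10, minimum total 15) numbered 11454. They were scaled with TMM and tested with edgeR 4.0.16 (glmQLFit, glmQLFTest, R 4.3.3), group as the only term, 2-sided, Benjamini-Hochberg over all genes, threshold 0.05. The SE is the log2 fold change over the square root of F. Pairs of libraries within a group differed by more than sampling noise (chi-square per degree of freedom 3.02 to 19.5). Tests were tested on simulated data. The simulation changed a far smaller part of the genes than was called here, in both directions, so it does not test the choice of scaling.

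Alternatives tried were scaling by library totals, upper-quartile factors or DESeq2 size factors, no filter or a stricter filter, the DESeq2 Wald test (1.42.0), limma-voom (3.58.1), a replicate block, each library left out, and each replicate number left out. A fold change comes from all 6 libraries. Log2 levels use a prior count of 2. Positions and exon overlap are from GENCODE release 29 (basic set). All 5 members matched a RefSeq promoter entry. The members, gene lists and motifs were chosen with earlier results of these data known, and the motifs also with the sequences in view. Named genes were the members, the 3 genes nearest to each, the 3 smallest p in each list with the smallest in the other direction, the catalytic CCR4-NOT genes, PRMT1, PABPC1, PABPC4 and the D-type cyclins and kinases, and otherwise genes past the threshold. Some genes that the rule names are not reported here.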

Additional observations from a re-analysis of the deposited data

How the results depend on the processing

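BTG1, BTG2 and BTG3 kept their direction and their side of the threshold under all 17 alternatives, with log2 fold changes of 1.22 to 1.51, 1.67 to 1.99 and -1.55 to -1.34. In each of the 3 the value farthest above was the one with library totals. The refits reuse the libraries whose counts were known when the members were chosen. They describe the dependence on processing and lend the calls no further support. TOB1, near 0, was above 0 with upper-quartile factors (0.0658) and library totals (0.137), and ranged from -0.15 to 0.0429 when libraries were left out. TOB2 was past the threshold only with library totals (0.29), and ranged from 0.0272 to 0.16 when libraries were left out. The changed genes were 49.1% higher with TMM, 59.5% with upper-quartile factors and 66.1% with library totals, and these scalings moved the median of all genes to 0.12 and 0.19. With upper-quartile factors the CCR4-NOT list had 1 higher and 3 lower, decapping and decay 4 and 5, and the recruiters 0 lower. With library totals these were 1 and 2, 5 and 5, and 0 lower, the partners had 3 lower and the D-type list 1 higher, as it did with no low-count filter.

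With libraries left out, the genes changed were 4161 to 6567, 1920 to 3195 higher and 2241 to 3372 lower. The counts higher and lower were 0 to 1 and 2 to 5 for CCR4-NOT, 2 to 3 and 4 to 5 for poly(A) genes, 2 to 2 and 5 to 9 for decapping and decay, 4 to 6 and 0 to 2 for recruiters, 1 to 2 and 3 to 6 for partners, 10 to 13 and 1 to 1 for quiescence, and 0 to 1 and 1 to 2 for the D-type list. Of 33 list genes examined singly, 26 were called and 23 were called in the same direction under every alternative. Signs flipped in genes that were not called: CNOT7 (0.0982 with upper-quartile factors, 0.171 with library totals, 0.021 with no filter, 0.0148 with the stricter filter), PABPC1 (0.053, library totals) and CDK6 (0.0029 and 0.0738, upper-quartile factors and library totals). With libraries left out CNOT7 ran from -0.109 to 0.103 and CNOT6L from -0.0455 to 0.087.

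With the replicate number as a block, the recruiters had 2 lower and the D-type list 2 lower (CCND3 at -0.25, edgeR adjusted p = 0.024), and no other count of a list moved by over 1.5 times. The labels' sample names share a tag between libraries of the same number, but no label says that the tag marks a shared experiment. Deviations from the group mean correlated by 0.374, 0.085 and 0.178 between libraries of numbers 1, 2 and 3, and ML141 replicate 2 correlated best with DMSO replicate 3 (0.291), so whether the numbers pair the libraries is not settled, and the fit without the block was kept. Depth limits BTG2 most, with 44 counts in its lowest library.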
